A study of Mus musculus with 42 samples.

Results

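The comparison concerned the 5 wild type embryos of the series, labelled 7_1, 8_1, 10_1, 17_7 and 22_4, for which the left and the right side of the heart field were sequenced separately. The members were therefore the 10 libraries whose labels give the genotype Ccdc40+/+, of 42 libraries in all, and right was compared with left across genes with both sides of an embryo kept as a pair. All 5 embryos were at stage E8.5i, when the direction of heart looping can be seen, and all had rightward looping. Embryos 7_1, 10_1, 17_7 and 22_4 were males and embryo 8_1 was the only female. Each sample was one side of a dissected piece, split at the midline, that held the heart field and its neighbouring tissues but neither the heart tube nor head, dorsal or more caudal tissue. The other embryos were Ccdc40lnks/lnks mutants, homozygous for a point mutation in a gene needed for the beat of cilia, and the line was kept on a background that the methods spell C56Bl6J. Of these mutants, 11 embryos (22 libraries) had rightward looping and 5 embryos (10 libraries) had inverted looping, and they were used only to ask what the wild type genes did in embryos that had not been used to choose them.

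Left and right are set in the mouse embryo by cilia that drive a flow at the node, after which the secreted factor Nodal is expressed in the lateral plate mesoderm of the left side. Nodal turns on its own antagonists Lefty1 and Lefty2, which limit it in space and time, and the side it marks is later read by the forming heart and gut. The heart field behind the heart tube supplies cells to both ends of the growing tube and holds, beside cardiac progenitors, pharyngeal and splanchnic mesoderm and foregut endoderm.

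The 10 libraries had between 39169088 and 55958371 counts on genes. The second heart field gene Isl1, which encodes a LIM homeodomain factor, was detected on both sides. It had 77.1 ± 22.6 CPM on the left and 86.3 ± 21.8 on the right (SD, n = 5). CPM, the usual unit of depth-scaled counts, was computed with the effective library size after TMM scaling, and it is not corrected for gene length. Muscle genes remained although the heart tube had been removed, as Myl7, an atrial myosin light chain, had 458 ± 153 CPM on the left and 464 ± 165 on the right. Ccdc40 itself lay between 15.2 and 26.5 CPM in wild types, between 8.83 and 14.6 in mutants with rightward looping and between 9.99 and 14.8 in mutants with inverted looping, so that no wild type library had the level of a mutant. As these are bulk samples, fewer cells of a type and less RNA per cell cannot be told apart.

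Across the 23182 genes that passed the filter on low counts, the fold change between sides of wild types was small for most genes and large for a few. No gene was called by edgeR's quasi-likelihood test at a Benjamini-Hochberg adjusted p under 0.05 (0 of 23182, 0%), and the smallest adjusted p was 0.793. At an unadjusted p under 0.05, 335 genes were higher on the left (1.45%) and 304 were higher on the right (1.31%). Together these were 639 genes (2.76%), below the share of 0.05 that such a threshold passes where sides do not differ. DESeq2, the tool that the study used, called 20 of 22732 genes (0.088%), 13 higher on the left and 7 on the right, and 968 genes had an unadjusted p under 0.05 with it. In the direction of all 5 embryos, 576 genes were higher on the left (2.48%) and 627 on the right (2.7%). The levels of both sides did not overlap for 109 genes (0.47%). Of the 11646 genes with a mean of at least 200 counts on either side, 11493 had a log2 fold change, right over left, under 0.5 in size and 32 had one over 1. With 5 pairs, an exact sign-flip test of a single gene cannot go below a two-sided p of 0.0625.

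Leading genes of each side were taken from this ranking. They are 11 left-higher and 12 right-higher genes, taken from the first 12 of each side by unadjusted p among those with the same direction in all 5 embryos and at least 200 counts on either side, which 299 and 218 genes met. Since the choice itself fixed their direction in wild types, their values there are a description. The log2 fold changes of the left set ran from -1.24 to -0.29 and those of the right set from 0.24 to 0.96. Just outside the choice lay Vgll3 on the left (log2 fold change -1.53, unadjusted p = 0.00736, against 0.00709 for Pdlim2, the last inside) and Pcgf2 on the right (0.24, unadjusted p = 0.0127, against 0.0116 for Fam162a). DESeq2 called 7 of the left and 5 of the right set.

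Postn and Col1a1, the first genes of the left set by p, encode extracellular matrix. Postn encodes periostin, a matrix protein of embryonic connective tissue and heart valves. Its level on the left was 28.8 CPM in 7_1, 33.9 in 8_1, 57.5 in 10_1, 128 in 17_7 and 27.5 in 22_4, and on the right it was 9.62, 21.8, 26.7, 60.3 and 7.71. Embryos differed in level more than sides did, and the groups overlapped, but within each embryo the left was higher. The log2 fold change was -1.24 ± 0.16 (adjusted p = 0.793 by edgeR and 2.07e-15 by DESeq2). Col1a1, a chain of type I collagen, had 169, 170, 323, 432 and 117 CPM on the left and 118, 143, 213, 291 and 90.3 on the right of 7_1, 8_1, 10_1, 17_7 and 22_4. This gene had a narrow spread of log2 ratios, from -0.60 to -0.26, and a log2 fold change of -0.47 ± 0.06. Col3a1, which encodes type III collagen, had -0.33 ± 0.08, with a log2 ratio of only -0.01 in the female 8_1.

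Genes of Wnt signaling were also among the left set. Ccn4, a secreted matricellular protein known as a Wnt target, had 15.9, 22.4, 21.9, 31.4 and 12.5 CPM on the left and 7.17, 12.8, 8.47, 16.7 and 9.72 on the right, in the order 7_1, 8_1, 10_1, 17_7 and 22_4. Left and right levels overlapped between embryos, whereas the left was higher in each one. Its log2 fold change was -0.92 ± 0.15 (DESeq2 adjusted p = 3.44e-07). Sfrp1, a secreted antagonist of Wnt ligands, had a log2 fold change of -0.38 ± 0.08, with mean levels of 138 ± 32.8 CPM on the left and 108 ± 36.1 on the right. Fzd7, which encodes a Wnt receptor, had -0.29 ± 0.08 and was not called by DESeq2 (adjusted p = 0.188).

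The other leading genes of the left have no common role. Dcaf12l1, an X-linked gene for a WD repeat protein, had 22.2, 43.0, 22.7, 19.3 and 17.7 CPM on the left and 11.2, 9.56, 6.94, 10.5 and 13.9 on the right in the order above. Its sides did not overlap, and its log2 ratio was furthest from 0 in the female 8_1 (-2.16) and nearest in 22_4 (-0.36). The log2 fold change was -1.22 ± 0.25, without a call by either tool (DESeq2 adjusted p = 0.0824). Pitx1, a homeobox gene of the hindlimb, had -1.06 ± 0.26 with log2 ratios from -1.82 to -0.35. Pla2r1, which encodes a receptor of secreted phospholipase A2, had -0.78 ± 0.17. Oat, the enzyme ornithine aminotransferase, had -0.31 ± 0.08, and Pdlim2, an actin-associated PDZ and LIM domain protein, had -0.46 ± 0.13. Oat overlaps Fgfr2 on the same strand in the annotation, so that its counts are less certain.

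**Figure D1:**
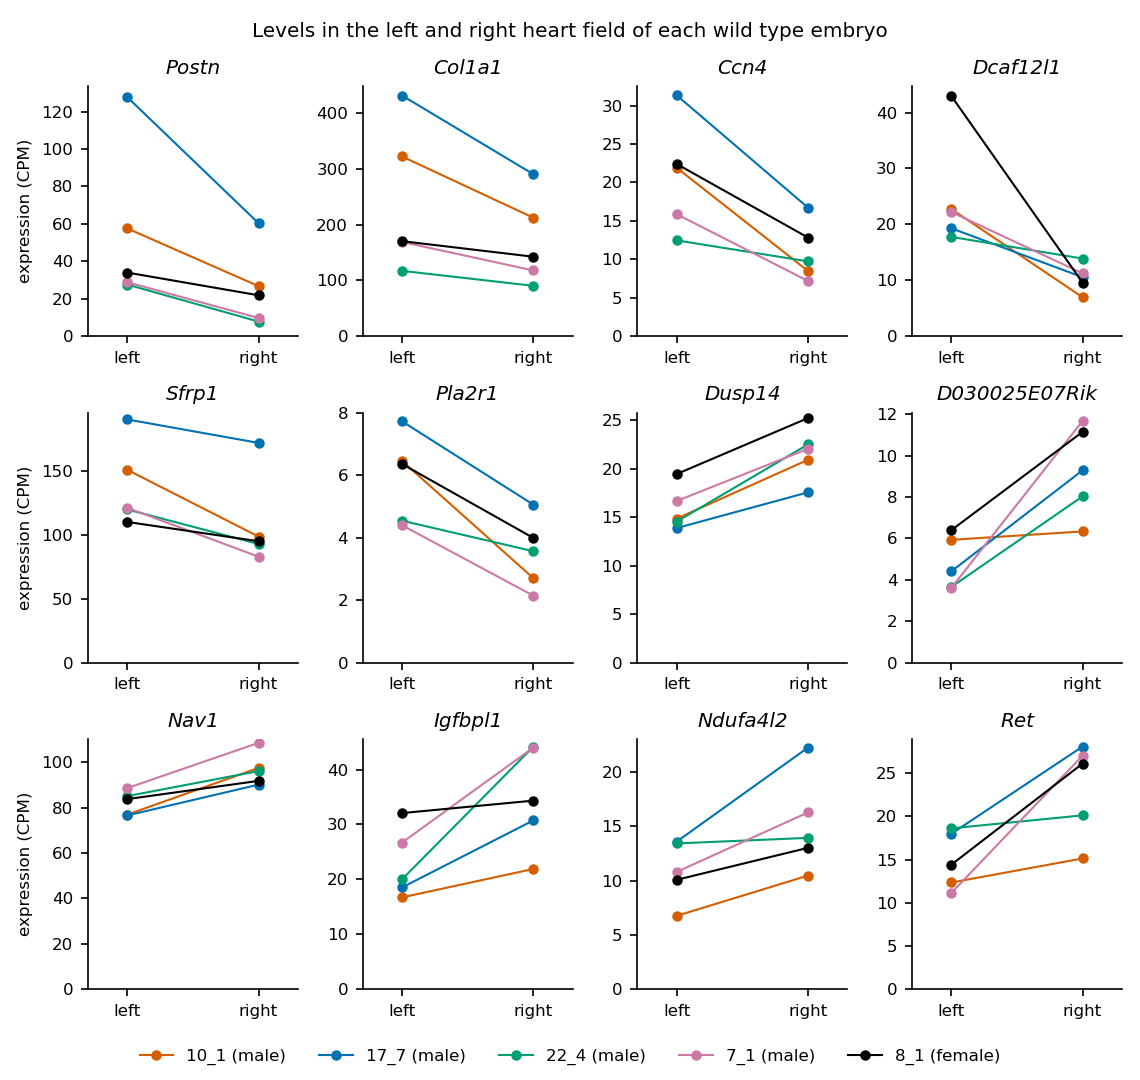
Expression (CPM, y axis from 0) on the left and right side of each wild type embryo for the first 6 genes of the left set and the first 6 of the right set by unadjusted p. Each line joins both sides of 1 embryo. For Dcaf12l1 the left sides lay between 17.7 and 43.0 CPM and the right sides between 6.94 and 13.9.

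On the right, the leading gene by p was Dusp14, a phosphatase that acts on MAP kinases. It had 16.7 CPM in 7_1, 19.5 in 8_1, 14.9 in 10_1, 13.9 in 17_7 and 14.6 in 22_4 on the left, and 22.1, 25.2, 20.9, 17.6 and 22.5 on the right. The sides overlapped by 1 embryo, as the left of 8_1 was above the right of 17_7. Its log2 ratios were even, between 0.34 and 0.63, and the log2 fold change was 0.45 ± 0.08 (DESeq2 adjusted p = 0.00249). D030025E07Rik is a long noncoding RNA (chr3:127910664-128025340, minus strand, GRCm39). It had 3.61, 6.40, 5.94, 4.41 and 3.66 CPM on the left of 7_1, 8_1, 10_1, 17_7 and 22_4 and 11.7, 11.2, 6.34, 9.30 and 8.04 on the right. Embryo 10_1 had nearly equal sides (log2 ratio 0.09), and the other embryos had log2 ratios from 0.80 to 1.68. The log2 fold change was 0.96 ± 0.22, the largest of the right set.

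Among the remaining 10 genes of the right set, Ret and Igfbpl1 had the largest log2 fold changes. Ret, the receptor tyrosine kinase for ligands of the GDNF family, had 11.1, 14.4, 12.3, 18.0 and 18.6 CPM on the left and 27.0, 26.1, 15.1, 28.1 and 20.1 on the right, in the same order of embryos. Embryos 10_1 and 22_4 had small log2 ratios (0.29 and 0.11), and the groups overlapped. Its log2 fold change was 0.64 ± 0.17. Igfbpl1, a secreted protein related to the IGF binding proteins, had 0.62 ± 0.14, with a log2 ratio of 0.10 in 8_1 and 1.14 in 22_4. Nav1, a microtubule-associated protein of the neuron navigator family, had 0.24 ± 0.05, and its sides did not overlap (76.6 to 88.7 CPM on the left, 90.2 to 109 on the right). Kat6a, a histone acetyltransferase, and Fam162a, a mitochondrial protein induced by low oxygen, had 0.26 ± 0.08 and 0.25 ± 0.08, also without overlap of the sides. Ndufa4l2, a mitochondrial protein induced by low oxygen as well, had 0.47 ± 0.12. Zbed6 (0.27 ± 0.08), a repressor of Igf2, Batf3 (0.41 ± 0.12), a leucine zipper factor, Ssc5d (0.48 ± 0.14), a scavenger receptor, and the homeobox gene Hoxc5 (0.49 ± 0.15) completed the set. Hoxc5 and Zbed6 share their span with other genes on the same strand (Hoxc6, Hoxc8, Hoxc9 and Hoxc10, and Zc3h11a), and their counts are uncertain.

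**Figure D2:**
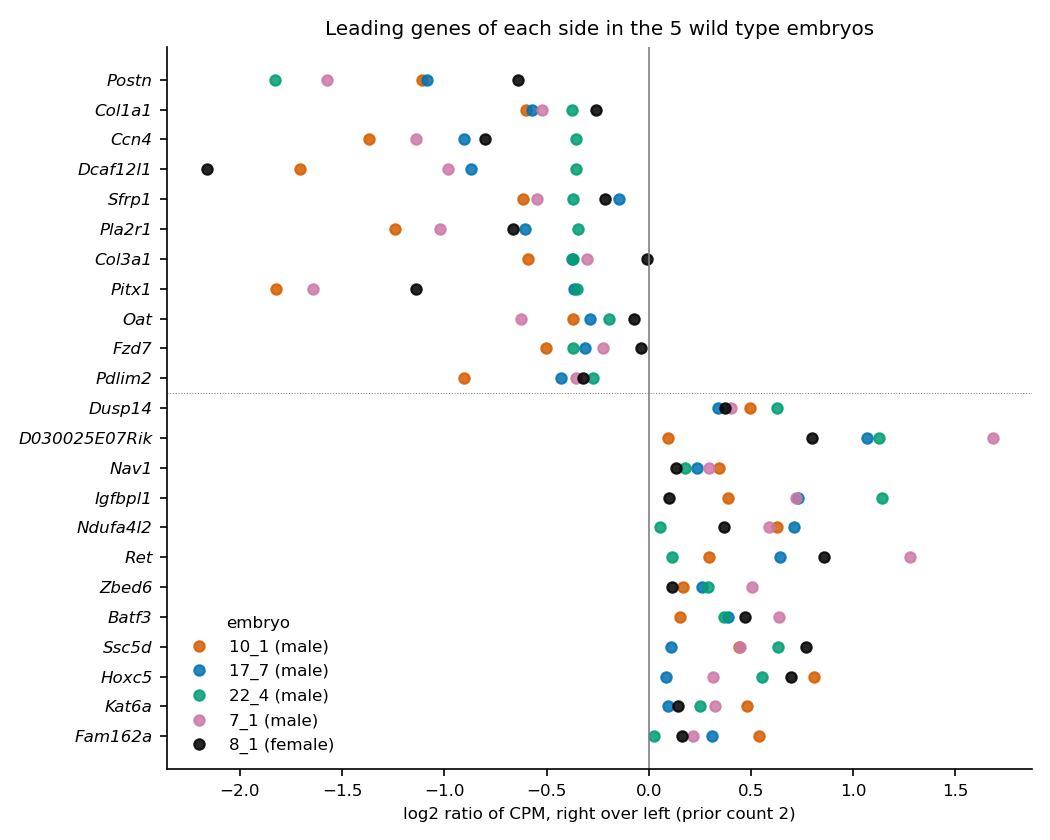
Log2 ratio of CPM, right over left with a prior count of 2 (x axis), of the 11 leading genes of the left (upper part) and the 12 of the right (lower part), with 1 point for each of the 5 wild type embryos. All points of a gene lie on 1 side of 0 because the genes were chosen that way, and their spread shows which embryo carried each gene, such as 10_1 with the smallest ratio of D030025E07Rik.

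The promoters of some leading genes are shown because the left set held genes of Wnt signaling. RefSeq windows (GRCm38.p6, 300 bases around a start) were found for 12 of the 23 leading genes. They were searched on both strands for CTTTGA, the core of the TCF/LEF site used in Wnt signaling, and for AATNNACA, the site of the Nodal effector FOXH1. Of all 32851 windows in the table, 16% held the first and 12.2% the second. Among the 12 matched genes, only the upstream start of Postn held a FOXH1 match, and none held CTTTGA. Of the leading Wnt genes, Fzd7 was matched, while Ccn4 and Sfrp1 had no window and were not searched. Capitals mark this match, which is a run of letters in a window and not a site. Both starts of Postn are shown to set the window with the match beside the one without it. The end of the upstream Postn window is not part of a GENCODE transcript, while the end of the second one is. D030025E07Rik and Dusp14 are shown as the first genes of the right set, with no match.
Postn upstream start, chr3:54359017-54359316, plus strand: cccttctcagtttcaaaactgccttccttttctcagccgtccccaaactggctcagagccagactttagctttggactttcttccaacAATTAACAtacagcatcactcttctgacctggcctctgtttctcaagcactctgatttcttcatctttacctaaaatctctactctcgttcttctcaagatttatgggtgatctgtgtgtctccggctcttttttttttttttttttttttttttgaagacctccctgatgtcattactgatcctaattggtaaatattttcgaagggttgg
Postn second start, chr3:54360857-54361156, plus strand: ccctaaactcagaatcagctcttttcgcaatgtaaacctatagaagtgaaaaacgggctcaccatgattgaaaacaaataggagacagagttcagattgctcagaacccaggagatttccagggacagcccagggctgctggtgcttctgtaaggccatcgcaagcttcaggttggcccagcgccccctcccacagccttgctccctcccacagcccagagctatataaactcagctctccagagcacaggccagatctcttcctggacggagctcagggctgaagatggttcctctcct
Dusp14, chr11:84068308-84068607, minus strand: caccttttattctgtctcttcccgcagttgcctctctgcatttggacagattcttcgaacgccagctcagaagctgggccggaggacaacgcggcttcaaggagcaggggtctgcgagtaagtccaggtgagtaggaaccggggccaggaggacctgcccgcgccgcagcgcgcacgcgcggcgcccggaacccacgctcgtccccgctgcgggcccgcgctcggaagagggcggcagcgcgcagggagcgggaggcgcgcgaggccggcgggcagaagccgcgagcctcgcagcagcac
D030025E07Rik, chr3:128231556-128231855, minus strand: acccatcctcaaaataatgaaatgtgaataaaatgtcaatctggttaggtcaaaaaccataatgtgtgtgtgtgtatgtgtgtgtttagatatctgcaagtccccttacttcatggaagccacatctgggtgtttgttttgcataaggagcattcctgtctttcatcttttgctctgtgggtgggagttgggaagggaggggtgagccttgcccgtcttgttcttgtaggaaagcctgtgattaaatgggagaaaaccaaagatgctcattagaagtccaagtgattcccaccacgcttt

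DESeq2 called 7 genes that were not in the leading sets. Gm43697, a transcript the annotation holds as still to be verified, had 0.281, 0.978, 0.618, 0.655 and 0.83 CPM on the left and 0, 0.13, 0.144, 0 and 0.266 on the right of 7_1, 8_1, 10_1, 17_7 and 22_4. Left and right did not overlap, and the log2 fold change was -2.90 ± 0.64 (DESeq2 adjusted p = 0.000591), a value that depends on the prior count since the right sides of 7_1 and 17_7 were at 0 counts. It overlaps Gm66148 on the same strand in the annotation, so that its counts are less certain. Scn3a, a voltage-gated sodium channel, had -1.18 ± 0.20 and was lower on the right in all 5 embryos (log2 ratios from -1.61 to -0.52). The noncoding RNAs 4930512H18Rik and Gm35533 had -1.90 ± 0.46 and -0.99 ± 0.18. Pglyrp3, an antibacterial peptidoglycan recognition protein, had -2.61 ± 0.54 at means of 0.466 CPM on the left and 0.0798 on the right. Nkx2-1, the homeobox gene of the lung and thyroid primordia, had 0.0374, 0.0889, 0, 0.0345 and 0.234 CPM on the left and 0.182, 0.148, 0.0479, 2.05 and 1.86 on the right of 7_1, 8_1, 10_1, 17_7 and 22_4. It was higher on the right in each embryo but was above 1 CPM only on the right of 17_7 and 22_4, and its log2 fold change was 3.15 ± 0.70. Tcf15, the somite factor paraxis, had 2.32, 0.267, 1.04, 1.5 and 0.234 CPM on the left and 5.11, 1.04, 3.11, 1.65 and 0.974 on the right. It was higher on the right of every embryo with overlapping groups, and its log2 fold change was 1.3 ± 0.30.

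In the Nodal pathway, receptors and effectors had log2 fold changes near 0 over all 5 embryos, while single embryos often went in opposite directions. The coreceptors had a wider spread between embryos. Of 18 tested members, 1 had an unadjusted p under 0.05 with a higher left (Lefty2) and 1 with a higher right (Ism1), and the median log2 fold change was 0.05, beside 0.002 over all genes. Nodal itself had 0.122 ± 0.0897 CPM on the left and 0.0957 ± 0.062 on the right, with at most 12 counts in a library. Embryos differed in direction, and its log2 fold change was -0.28 ± 0.68, or 0.20 without 10_1. In mutants with rightward looping it was higher on the left in 11 of 11 embryos, but it did not pass the filter there. In inverted mutants it was higher on the right in 3 of 5. The antagonist Lefty2 had 0.767, 2.53, 0.841, 1.02 and 0.882 CPM on the left and 0.0808, 0.371, 0.383, 0.458 and 0.886 on the right of 7_1, 8_1, 10_1, 17_7 and 22_4. It was higher on the left in 4 embryos and equal in 22_4, with a log2 fold change of -1.54 ± 0.46. Lefty1, the antagonist of the midline, had -1.22 ± 0.60 with at most 17 counts, and -0.81 without 7_1. Ism1, which encodes a secreted inhibitor of Nodal, had 0.68 ± 0.21 and was higher on the right in 4 of 5 embryos. The coreceptor Cfc1 had -0.39 ± 0.36, with log2 ratios from -1.50 in 10_1 to 1.13 in 22_4. The other coreceptor Cripto had 1.46 ± 0.92, with 52.6 CPM on the right of 22_4 and 0.984 on the right of 8_1. Its log2 ratios were 1.35, -2.13, 0.01, 3.19 and 4.04 in 7_1, 8_1, 10_1, 17_7 and 22_4. The log2 fold change of Cripto was 0.68 without 22_4 and 2.27 without 8_1, and that of Cfc1 was -0.12 without 10_1 and -0.76 without 22_4. Receptors and effectors were near 0: Acvr1b 0.01 ± 0.10, Acvr2a 0.00 ± 0.11, Smad2 0.07 ± 0.05, Smad3 0.05 ± 0.10, Smad4 0.05 ± 0.11 and Foxh1 0.06 ± 0.18 on the log2 scale. All but Smad2 turned sign without 1 embryo. Foxh1 had 0.22 without 10_1 and -0.13 without 22_4, and Smad4 had 0.13 without 17_7 and -0.05 without 7_1. The convertases Furin and Pcsk6 had -0.15 ± 0.16 and 0.37 ± 0.16, the repressor Skil -0.10 ± 0.15, the receptor Acvr2b 0.14 ± 0.09, and the antagonists Cer1 and Dand5 0.26 ± 0.37 and 0.12 ± 0.16. Single embryos moved each of these. Furin had -0.02 and Skil 0.04 without 10_1, and Pcsk6 had 0.24 and Acvr2b 0.08 without 7_1. Cer1 had -0.06 without 17_7 and Dand5 0.03 without 22_4. Gdf1 and Gdf3 did not pass the filter.

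The medians of the gene lists, and their counts of members at an unadjusted p under 0.05, depended on single embryos. Of 28 lists, 17 had a median that turned sign when 1 embryo was left out (7 without 10_1, 7 without 17_7, 5 without 8_1, and 4 each without 22_4 and 7_1), and each of the 28 turned sign or moved by more than 1.5 times without at least 1 embryo. The count of members moved by more than 1.5 times, or to or from 0, in 24 of 28 lists, most often without 22_4 (16 lists). Of 23 list members named at such a p that were neither leading genes nor called by DESeq2, 17 were above 0.05 without at least 1 embryo, most often without 7_1 (15 genes).

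In the list of 25 collagen and matrix genes, 19 had a lower value on the right and the median log2 fold change was -0.22. At an unadjusted p under 0.05, 6 were higher on the left (Postn, Col1a1, Col3a1, Col1a2, Dcn and Lum) and 2 on the right (Vcan and Col2a1), beside 1.45% and 1.31% of all genes. None passed the adjusted threshold of edgeR, and DESeq2 called 3. The proteoglycan genes Dcn (decorin) and Lum (lumican) had -0.61 ± 0.17 and -0.75 ± 0.27, although Lum was higher on the right of 8_1 (log2 ratio 0.59). Col1a2, the second chain of type I collagen, had -0.27 ± 0.10. Vcan (versican) and Col2a1, matrix genes of cushions and of notochord and cartilage, had 0.23 ± 0.08 and 0.25 ± 0.10. The median log2 ratio of the list was 0.15 in 22_4, -0.59 in 10_1 and between -0.20 and -0.11 in the others. Col2a1 had 0.15 without 17_7. Without 10_1 the median was -0.13, without 7_1 it was -0.13 as well, and 4 members then had such a p with a higher left. With a higher right, 0 members had it without 7_1 or without 22_4. Without the embryo block, 0 members had such a p with a higher left and 1 with a higher right.

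Among secreted modulators of Wnt signaling, 14 of 17 tested members had a lower value on the right, with a median of -0.19, beside 0.002 over all genes. The median was -0.10 without 10_1 and -0.38 without 22_4. Over all genes, 1.45% had an unadjusted p under 0.05 with a higher left. Members of the list that did were Sfrp1, Dkk2 and Trabd2b, all higher on the left in all 5 embryos. Dkk2, an antagonist that binds LRP coreceptors, had -0.61 ± 0.22. Trabd2b, a protease that inactivates Wnt ligands, had -0.50 ± 0.17. Without 22_4 there were 7 such members, without 10_1 there were 5 and without 7_1 only 1. Of 18 Wnt ligands, 0 had an unadjusted p under 0.05 with either direction and the median was 0.00 on the log2 scale. Of 15 receptors only Fzd7 did, and of 12 target and feedback genes only Ccn4, with medians of -0.06 and 0.07. Without 22_4, 4 of the target and feedback genes had such a p with a higher right beside Ccn4 with a higher left (median 0.14), and without 17_7 the median was -0.02.

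For heart progenitors, embryos leaned in opposite directions. The second heart field list of 10 genes had a median log2 ratio of 0.38 in 7_1, -0.40 in 8_1, -0.63 in 10_1, 0.34 in 17_7 and 0.30 in 22_4. Over all embryos it had a median of -0.03 (0.20 without 10_1) and 1 member with an unadjusted p under 0.05, the transcriptional cofactor Eya1 (0.25 ± 0.10). In the list of cardiopulmonary and venous pole progenitors, 2 of 14 had such a p, both higher on the right, while the median was -0.06 (0.03 without 10_1). These were the posterior heart field gene Hoxb1 (0.19 ± 0.06) and the homeobox gene Meis2 (0.14 ± 0.06). The retinol receptor Stra6, in the retinoic acid list, had 0.37 ± 0.13 and was the only 1 of 15 with such a p. Among 10 lateral plate genes, Pitx1 and Hand1 had a p of this kind with a higher left. Hand1, a factor of lateral plate and left ventricle, had 107, 107, 112, 134 and 56.9 CPM on the left and 52.3, 74.3, 38.0, 101 and 56.6 on the right of 7_1, 8_1, 10_1, 17_7 and 22_4. Its sides were equal in 22_4 and overlapped between embryos, and the log2 fold change was -0.70 ± 0.20. The median of the list was -0.28, and without 10_1 it was -0.00209.

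The 8 signature genes that the study named were chosen by the study on these samples together with the mutants, so that their direction here is not independent evidence. The left was higher at an unadjusted p under 0.05 for 6, which were Postn, Ccn4, Pitx1, the small heat shock gene Hspb8 (-0.57 ± 0.17), Trabd2b and the endoplasmic reticulum phagy receptor Retreg1 (-0.79 ± 0.33). Misp3 had -0.72 ± 0.41, and the prostaglandin F receptor Ptgfr had 0.34 ± 0.18 and was higher on the right in 4 of 5 embryos. Ptgfr had 0.16 without 8_1, Misp3 had -1.17 without 8_1 and -0.43 without 10_1, and Retreg1 had -0.49 without 10_1. The median of the 8 genes was -0.76, and it was -0.46 without 10_1.

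Other pathway lists had few members past an unadjusted p under 0.05. In the FGF and ERK list of 19, Dusp14 and the ligand Fgf9 (0.82 ± 0.28) were higher on the right. In the Notch list of 15, the ligand Dll4 had 0.49 ± 0.19 (0.27 without 22_4), and of 18 genes of glycolysis and hypoxia, 16 had a value above 0 with a median of 0.12 and only Bnip3, a mitophagy receptor, reached this p (0.17 ± 0.05). Without 10_1 that median was 0.06, and 5 members had such a p with a higher right without 22_4 and in the fit of all 42 libraries. The early response genes Klf6 (-0.19 ± 0.07, and -0.13 without 10_1) and Dusp1 (0.16 ± 0.06) were the only 2 of 17. None did among 15 Bmp ligands and antagonists (median -0.14), 9 Bmp response genes (-0.14), 13 Hedgehog genes (-0.05) and 16 cell cycle genes (0.03). Without 10_1 the medians of the Bmp lists were 0.04 and -0.02, and without 22_4 they were -0.27 and -0.26, with 2 of the ligands and antagonists then at such a p.

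Left and right also differed in markers of neighbouring tissues, and embryos differed in which way. Visceral endoderm, a yolk sac tissue, was followed by 11 genes such as Afp, Ttr and Apoa1, all of which had a lower value on the right, with a median of -1.05, though 0 of 11 had an unadjusted p under 0.05. Their summed level lay between 251 and 1197 CPM on the left and between 83.1 and 879 on the right. Its log2 ratio was -2.67 in 7_1, -3.14 in 10_1, -1.03 in 17_7 and -0.06 in 22_4 but 1.81 in 8_1, and without 8_1 all 11 genes had an unadjusted p under 0.05 with a median of -1.78. Paraxial mesoderm, the tissue of somites, had a median of 0.61 over 12 genes, among which only Tcf15 reached an unadjusted p under 0.05, and the log2 ratio of its sum ran from -0.44 in 17_7 to 1.39 in 8_1 (left 73.3 to 253 CPM, right 145 to 389). Heart tube muscle ranged from -1.67 in 10_1 to 1.05 in 22_4 (12 genes, 0 at such a p, left 2047 to 5133 CPM, right 979 to 4251). Foregut endoderm had a median of -0.15 over 12 genes, with sums from 1464 to 1780 CPM on the left and 791 to 1912 on the right, and only Nkx2-1 at such a p. Without 22_4 the foregut median was -0.47, with 3 genes at such a p on the left and 0 on the right, and without 10_1 it was 0.03.

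The further marker lists held few such genes. Of 12 endothelial genes only the angiopoietin receptor Tek had an unadjusted p under 0.05 (-0.47 ± 0.14, and -0.30 without 10_1), and of 10 genes of extraembryonic mesoderm and amnion Postn and Plac1 did (Plac1 -0.45 ± 0.15). Primitive blood, neural tube and neural crest had 0, with medians of 0.06, -0.05 and 0.40. Without 22_4, 4 of the 8 neural crest genes had such a p with a higher right and their median was 1.07, and without 7_1 it was 0.02. No marker list summed to 0 in any library. These differences in marker levels stand beside the leading genes of both sides, and the part of tissue content in the values of those genes was not tested.

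**Figure D3:**
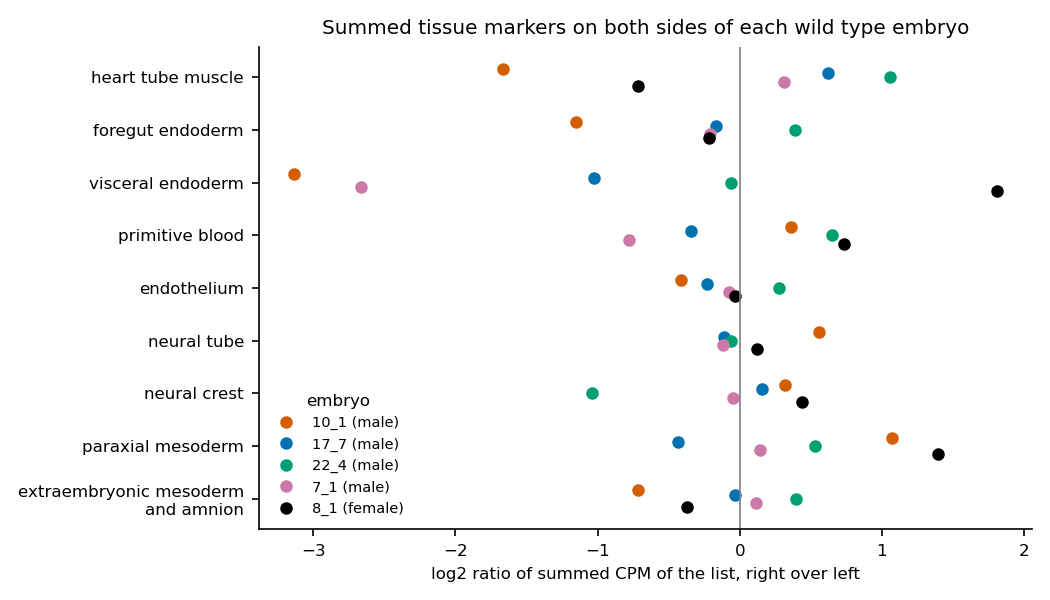
Log2 ratio, right over left, of the summed CPM of 9 tissue marker lists (x axis), with 1 point for each of the 5 wild type embryos. Visceral endoderm ranges from -3.14 in 10_1 to 1.81 in 8_1, and the other lists lie between -1.67 and 1.39.

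Embryo 10_1 stood apart from the others. Over the 11646 genes of at least 200 counts, the SD of its log2 ratios was 0.56, against 0.28 to 0.35 in the other 4, and 899 genes were beyond 1 in size, 737 of them higher on the left, against 125 to 232 genes in the others. The log2 ratios of any 2 embryos correlated between -0.38 and 0.34 across these genes, which are not independent replicates and share the makeup of each library. Embryo 8_1 had negative values with 7_1 (-0.38), 17_7 (-0.37) and 22_4 (-0.36), as did 10_1 with 22_4 (-0.38). Without 10_1 the log2 fold changes were -0.80 for Ccn4 and 1.18 for D030025E07Rik, and again 0 genes were called by edgeR.

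The leading genes were then followed in mutants with rightward looping, 11 embryos that had no part in their choice. The labels divide these embryos no further, but the study sorted them by their asymmetric genes into situs solitus and heterotaxy, so that values of the group mix both. As the genes were chosen for their wild type values, a comparison of size with wild types is a description. In these mutants, edgeR called 6 of 22795 genes (0.0263%) at an adjusted p under 0.05, all higher on the left. Of the left set, 9 of 11 had the wild type direction in the mutants, with a median log2 fold change of -0.21 against -0.47 in wild types, and 1 was called. Dcaf12l1 had -0.97 ± 0.15 (adjusted p = 0.0409) by edgeR after the Benjamini-Hochberg procedure. It was higher on the left in all 11 mutants. Outside the leading sets, Gm35533, called in wild types by DESeq2, was also called (-1.07 ± 0.15, adjusted p = 0.0348). Of the Nodal pathway genes, Lefty2 had -2.12 ± 0.45 and was higher on the left in 11 of 11 of these mutants. Ism1 had 0.09 ± 0.14 with 6 embryos higher on the right, and neither was called. Ccn4 (-0.44 ± 0.16) and Sfrp1 (-0.21 ± 0.09) had an unadjusted p under 0.05 without a call, as did 2% of all genes with a higher left, and Postn (-0.64 ± 0.34), Col1a1 (-0.11 ± 0.13) and Pitx1 (-0.31 ± 0.32) had neither. Fzd7 (0.04 ± 0.10) and Pdlim2 (0.01 ± 0.07) had no lean to the left.

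Of the right set, 9 of 12 had the wild type direction in these mutants, with a median of 0.16 against 0.46, and 0 were called by edgeR. An unadjusted p under 0.05 was reached with a higher right by 1.58% of all genes and by 5 of the right set, which were D030025E07Rik (0.62 ± 0.16), Igfbpl1 (0.34 ± 0.11), Ret (0.29 ± 0.08), Ndufa4l2 (0.24 ± 0.07) and Fam162a (0.11 ± 0.05). The first 3 were higher on the right in 10 of 11 mutants. Dusp14, the leading gene of the right in wild types, had 0.13 ± 0.08. Among single mutants, between 10 and 23 of the 23 leading genes had the wild type direction, with a median of 16. The difference in asymmetry between rightward mutants and wild types was called for 0 of 26335 genes (0%) by edgeR, of which 800 had an unadjusted p under 0.05, and DESeq2 called 0 as well.

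In mutants with inverted looping, edgeR called 468 of 22960 genes (2.04%), 395 higher on the right and 73 on the left. The sign was opposite to that of wild types for 9 of 11 genes of the left set and 10 of 12 of the right set, and called with the opposite sign by edgeR were Dcaf12l1 (1.42 ± 0.17) and Ccn4 (1.01 ± 0.18), with adjusted p of 0.00817 and 0.0324. Embryos varied here as well, since between 1 and 13 of the 23 leading genes had the wild type direction in a single inverted mutant, with a median of 5. The highest count was in embryo 4_6, where 7 of 11 genes of the left set were higher on the left (median log2 ratio -0.50, and -2.02 for Postn). The exceptions over the group were Sfrp1 (-0.36 ± 0.22) and Fzd7 (-0.08 ± 0.16) on the left and Zbed6 (0.08 ± 0.10) and Kat6a (0.11 ± 0.12) on the right. The test of the difference from wild types called 135 of 26335 genes (0.513%), 120 of them with a positive difference, inverted minus wild type, and 15 with a negative one. The wild type values in this difference are those that chose the leading genes, so that the count of leading genes is not set against that share. It called 4 of the left set, namely Dcaf12l1, Ccn4, Oat and Pla2r1, and 3 of the right set, namely D030025E07Rik, Igfbpl1 and Ret. For Dcaf12l1 the difference was 2.62 ± 0.34 on the log2 scale (adjusted p = 0.00147) and for D030025E07Rik -1.55 ± 0.33 (adjusted p = 0.0302). For the matrix genes Postn (1.79 ± 0.69, adjusted p = 0.247), Col1a1 (0.79 ± 0.27, adjusted p = 0.190) and Col3a1 (0.39 ± 0.20, adjusted p = 0.414) it was not called. Without wild type 22_4 the test called 641 genes, and it called 39 without 10_1, 62 without 8_1 and 77 without 7_1.

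**Figure D4:**
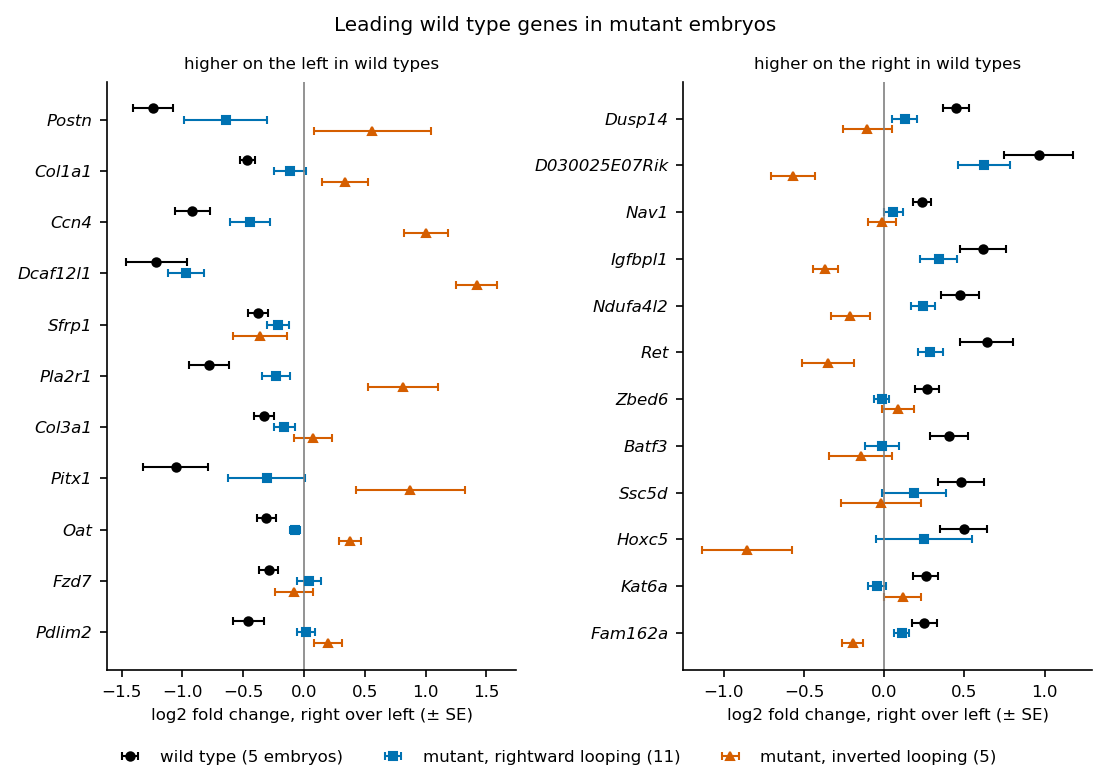
Log2 fold change, right over left, with its standard error (x axis) of the 11 leading genes of the left (left panel) and the 12 of the right (right panel) in 5 wild types (black circles), 11 mutants with rightward looping (blue squares) and 5 mutants with inverted looping (orange triangles). Dcaf12l1 lies at -1.22, -0.97 and 1.42, while Sfrp1 lies below 0 in all 3 groups. The scales of both panels differ.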

How the data were processed

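Poly-A RNA of paired left and right heart fields was sequenced. Per the labels and the study's methods, the authors trimmed adapters, removed duplicates, mapped the reads to GRCm39 using STAR, and summed them per gene using featureCounts (Subread 2.0.6). They deposited raw counts per Ensembl gene without normalization or a filter. Strand setting and handling of reads on several genes are not given in the sources used here, so that counts of overlapping genes are uncertain. Amplified reads without molecular identifiers are not independent molecules. The file holds 56953 genes in whole numbers, of which 56310 had a symbol in GENCODE vM39. All its columns were matched to samples by embryo and side.

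Of these counts, the 10 wild type libraries (39169088 to 55958371 counts) were fitted with edgeR 4.0.16 in R 4.3.3: filterByExpr by side with the study's settings (a minimum count of 5, a total of at least 10, a large group size of 50 and a proportion of 0.2), TMM, legacy quasi-likelihood dispersions, embryo plus side, and Benjamini-Hochberg adjustment over all genes tested. Each label names its embryo, which gives the pairs. Residuals of both sides of an embryo correlated between 0.12 and 0.37 over the 2000 most variable genes, and in 4 of 5 embryos the highest value with the opposite side of another embryo (0.19 to 0.23 in all 5) was above the own one. Standard errors were the fold change over the square root of its F value. Log2 ratios per embryo used a prior count of 2. Differences from mutants were tested as the interaction of side with group, with all 42 libraries and a term for each embryo. Copied libraries were not found, as chi-square per gene was at least 17.1 over 45 pairs of libraries. Simulated data with independent genes served only as a check of the code, since they lack the makeup that genes of a library share.

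Named genes were any called by edgeR (none was), those of the first 12 by p on each side with the same direction in all 5 embryos and a mean of at least 200 counts on either side, those called by DESeq2 1.42.0 (local fit), and members of the lists with an unadjusted p under 0.05, else up to 3 of smallest p, with all Nodal pathway and signature genes. Isl1, Myl7 and the yolk sac examples are named outside this rule, after their values were seen. A gene of the left set and a list member are not reported here. Members and lists were chosen with earlier results of these data known. Alternatives were DESeq2, no embryo block, RLE size factors, library size alone, other filters, males alone, a fit of all libraries, each embryo left out, newer dispersions of edgeR and DESeq2 in males, the last 2 chosen after seeing the data.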

Additional observations from a re-analysis of the deposited data

Results flagged for a closer look

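Across the 37 genes followed most closely, 1 had an embryo far from the others by its gap to the nearest relative to the range. This was Pdlim2, whose log2 ratio in 10_1 was -0.91 while the other embryos lay between -0.43 and -0.27. Chance flags about 1 in 20 groups.

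The asymmetry of 16 of these genes differed between inverted mutants and wild types by the interaction test of edgeR at an adjusted p under 0.05. Most of these genes were chosen on the wild type values that enter the difference, so that their count is a description. The difference in log2 fold change, inverted minus wild type, was 5.45 for Lefty2, 5.15 for Gm43697, 4.76 for 4930512H18Rik, 2.62 for Dcaf12l1, 2.09 for Gm35533, 2.02 for Scn3a, 1.91 for Ccn4, 1.58 for Pla2r1, 1.56 for Hspb8 and 0.67 for Oat. It was -2.39 for Tcf15, -1.55 for D030025E07Rik, -1.40 for Ism1, -1.20 for Ptgfr, -1.01 for Ret and -1.0 for Igfbpl1. Lefty2 and Gm43697 rest on few counts. None of the 37 had such a difference between rightward mutants and wild types at this threshold.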

How the results depend on the processing

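In wild types, edgeR called 0 genes under the RLE scaling, library size alone, at least 10 counts in every library, males alone, the newer dispersions and without any 1 embryo, and also without the embryo block, where pairing was dropped and 524 genes had an unadjusted p under 0.05. It called 2 genes, with Postn among them, with no filter on low counts and 1 in the fit of all 42 libraries, in which 1184 genes had an unadjusted p under 0.05. DESeq2 called 20 genes (968 at an unadjusted p under 0.05) and 89 in males alone (1226). When embryos were left out in turn, the calls ranged from 0 to 0 and the genes at an unadjusted p under 0.05 from 391 without 7_1 to 956 without 22_4. The difference from inverted mutants was called for 911 genes by DESeq2 and for 7 without the block, and for 39 (without 10_1) to 641 genes (without 22_4) when a wild type was left out, with 77 without 7_1 and 62 without 8_1. In rightward mutants DESeq2 called 32 genes and the fit without the block 1. The causes were not tested. For the 37 genes followed, 0 of 548 alternative values reversed, 512 kept direction and side of the threshold, and 36 were past it only under the alternative. The 23 leading genes were chosen for 1 direction in all 5 embryos, which fixes the direction when embryos are left out, so that the absence of reversals is no sign of stability. The depth of single genes limits those near 1 CPM, such as Lefty2, Nkx2-1 and Gm43697, more than the others, and 5 embryos, of which 1 was female, limit all.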
